A study of Mus musculus with 15 samples.

Results

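The genes described here are used as markers of alternatively activated and tissue-resident macrophages. Retnla, Mrc1, Cd163, Arg1, Chil3, Folr2 and Timd4 were followed in tarsal joints through collagen-induced arthritis (CIA). They are 7 of the 19938 genes that the arrays measured with a probe set naming a single gene, and each was read by 1 probe set found by its symbol in the array annotation (Chil3 stands there under its older name Chi3l3). The genes were chosen by their measured levels on these same arrays, the mean of each disease group beside that of the controls. Their levels and changes are therefore given as a description with their errors and without a p-value, and tests are given only for other genes.

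Macrophages exposed to interleukin-4 or interleukin-13 signal through the receptor chain IL-4Rα and the transcription factor STAT6 and take on the alternative state, associated with tissue repair and with control of inflammation. In mice this state is usually read from Retnla (the secreted protein RELMα), Chil3 (the chitinase-like protein Ym1), Arg1 (arginase 1) and Mrc1 (the mannose receptor CD206). Cd163, a scavenger receptor for haemoglobin bound to haptoglobin, Folr2, the folate receptor β, and Timd4, a phosphatidylserine receptor used in the uptake of dying cells, are found on macrophages that reside in tissues, the lining and sublining of the synovium among them.

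The data are log2 intensities of 15 Affymetrix Mouse Gene 1.0 ST arrays, each with RNA from a whole tarsal joint of 1 male DBA/1JBom mouse, freed of skin and visible muscle while other soft tissue was kept. Arthritic mice had received 100 µl chicken collagen type II at 2 mg/ml, in complete Freund's adjuvant at 0.5 mg/ml, intradermally on day 1 and a boost in incomplete adjuvant on day 21. Joints were taken on day 0 to 3 after onset (animals 16, 18 and 57), in week 1 to 2 (33, 43 and 52) and in week 3 to 4 (29, 54 and 60), all with clinical score 3, or in the declining disease phase (10, 15 and 21), after at least 2 weeks at score 3. The 3 control joints are labelled as not induced, and whether these mice had received adjuvant without collagen could not be settled from the sources used here. The labels exclude the array of animal 57 for failed quality control, so that 14 arrays, 2 of them from day 0 to 3, carry the results, and the values of animal 57 stand beside those of the members. All 4 phases were compared with the same 3 controls.

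Markers of the labelled tissue were measured on every array, with the mean of 10 synovial fibroblast genes between 9.32 and 10.85 over the 14 arrays and at 8.57 on that of animal 57. The signal range of an array, taken as the SD over its genes, was 1.41 to 1.65 on 12 of the 14 and narrower on control 2 (1.22) and decline 10 (1.28), with the controls at 1.22 to 1.46. The array names carry a letter code whose meaning is not given. Over the 14 arrays, the joints of the first 2 phases and animal 54 share one. Animals 29 and 60 and the declining joints share another, and the controls have none. Code and phase against control therefore cannot be told apart. In whole joints, fewer cells of a type and less RNA per cell cannot be told apart either.

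The Retnla and Chil3 promoters are shown because these are the members whose 250 bases before the start site hold a STAT-type sequence, given in capitals, while the levels of both genes took different courses. The sequences are those of RefSeq (GRCm38.p6), where 6 of the 7 members were matched and Arg1 was not listed. This reference is the C57BL/6J genome and the mice were of another strain. The Retnla window lies at chr16:48842359-48842608 on the plus strand and the Chil3 window at chr3:106167565-106167814 on the minus strand, and both are written 5′ to 3′ up to the base before the start.
Retnla: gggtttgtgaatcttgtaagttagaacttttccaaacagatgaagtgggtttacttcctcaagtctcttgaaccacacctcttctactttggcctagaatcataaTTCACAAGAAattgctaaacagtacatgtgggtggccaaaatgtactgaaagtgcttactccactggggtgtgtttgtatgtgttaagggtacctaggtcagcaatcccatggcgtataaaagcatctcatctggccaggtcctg
Chil3: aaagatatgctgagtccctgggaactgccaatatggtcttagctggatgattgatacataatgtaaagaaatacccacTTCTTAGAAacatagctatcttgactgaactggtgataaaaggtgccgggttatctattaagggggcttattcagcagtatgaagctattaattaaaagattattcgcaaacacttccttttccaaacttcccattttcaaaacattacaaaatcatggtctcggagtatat

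The Retnla match, TTCACAAGAA at -145 to -136, has the STAT6-type spacing TTCNNNNGAA, which 5.85% of all 32851 promoters of this length held and no other matched member did. It is followed at -134 to -127 by TTGCTAAA, a match to the C/EBP-type sequence TTGCNNAA (9.56% of promoters). The Chil3 match, TTCTTAGAA at -172 to -164, has the shorter spacing TTCNNNGAA (7.02% of promoters). An AP-1-type TGANTCA (6.75% of promoters) was found in Folr2 before its second listed start, at -74 to -68. Both strands were searched for each motif, no 2 matches overlapped, and a match describes letters and not a bound site.

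Retnla, made by alternatively activated macrophages and in mice also by cells of adipose tissue, had the largest change of the 7 genes. Its log2 level in the controls was 8.60, 9.17 and 9.83. On day 0 to 3 it was 5.87 and 6.22, the lowest values of the 14 arrays. In week 1 to 2 it was 7.33, 7.84 and 8.03, and in week 3 to 4 it was 8.03, 7.93 and 7.19 for animals 29, 54 and 60. The declining joints 10, 15 and 21 had 7.45, 8.16 and 8.50. Every arthritic joint of the 14 was below every control on the deposited scale, and the day 0 to 3 joints were below every other joint.

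Against the control mean of 9.20 ± 0.61 (SD, n = 3), the level on day 0 to 3 was 8.91-fold lower (log2 -3.15, SE 0.38, n = 2). Only 0.0301% of all genes had a lower change in that comparison, a rank that only describes, as the genes were chosen by these values. In week 1 to 2 the level was 2.77-fold lower (log2 -1.47, SE 0.34), in week 3 to 4 it was 2.80-fold lower (log2 -1.49, SE 0.34) and in decline 2.24-fold lower (log2 -1.17, SE 0.34). The difference was thus deepest at onset and shallower afterwards. The next 2 phases, with means of 7.73 ± 0.36 and 7.72 ± 0.46, differed by 0.02 and their joints overlapped. Decline (8.04 ± 0.53) also overlapped both, while the 1.67 between week 3 to 4 and day 0 to 3 (6.05 ± 0.25) left no overlap. Within week 3 to 4, animal 54, which shares its letter code with the earlier phases, had 7.93 and lay between the others.

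Animal 57, the excluded joint of day 0 to 3, had a Retnla level of 8.94, inside the control range. With it added, the change on day 0 to 3 was -2.19 in place of -3.15 and the joints of that group overlapped the controls. Leaving out any 1 of the 14 arrays kept the change on day 0 to 3 between -3.45 and -2.84 and that in decline between -1.46 and -0.85. With each array centred on its median over all probe sets, decline was no longer below every control, as the joint of animal 21 stood at 2.46 and control 1 at 2.44.

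**Figure D1:**
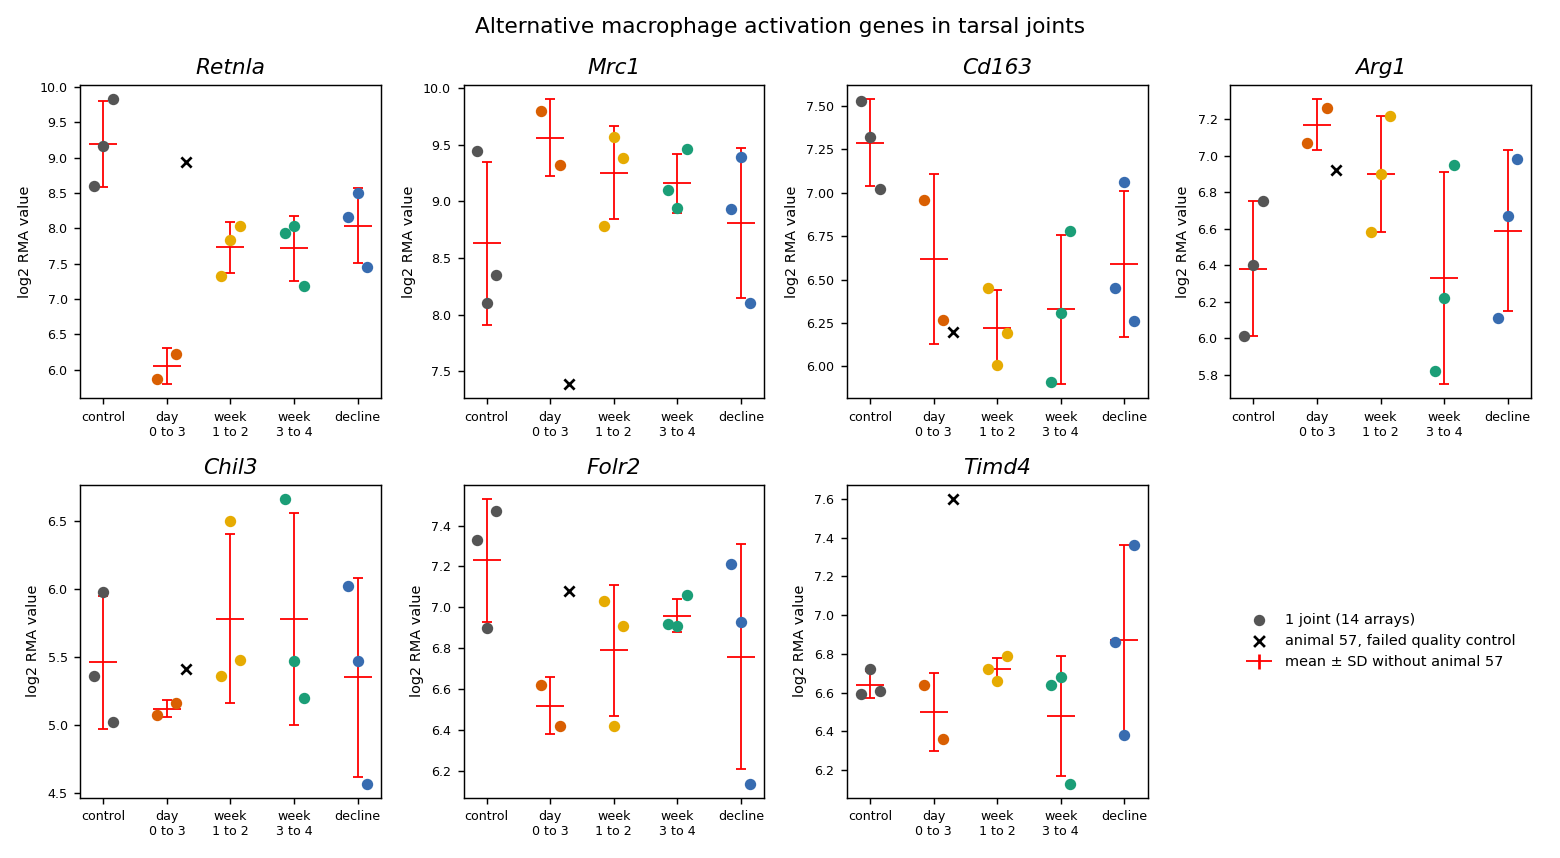
Log2 level (vertical axis) of each of the 7 genes in every joint, by group (horizontal axis), with red bars for the mean ± SD of each group over the 14 arrays and a cross for the excluded array of animal 57. Over the 14 arrays, Retnla lies below all controls in every phase and lowest on day 0 to 3, and Chil3 and Timd4 overlap the controls in each phase. The Retnla cross of animal 57 lies within the controls.

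Cd163, the haemoglobin-haptoglobin scavenger receptor, was also lower, with another time course. The controls had 7.53, 7.32 and 7.02. On day 0 to 3 the joints of animals 16 and 18 had 6.96 and 6.27, in week 1 to 2 the values were 6.45, 6.01 and 6.19, and in week 3 to 4 they were 5.91, 6.31 and 6.78. The declining joints had 6.26, 6.45 and 7.06, the last of them above the lowest control. All joints of the first 3 phases were thus below all controls, and decline overlapped them. The level was 1.60-fold lower on day 0 to 3 (log2 -0.68, SE 0.30), 2.11-fold lower in week 1 to 2 (log2 -1.08, SE 0.27), 1.94-fold lower in week 3 to 4 (log2 -0.96, SE 0.27) and 1.63-fold lower in decline (log2 -0.70, SE 0.27). The 4 phases overlapped each neighbour in the order of their means, so that no phase stood apart as the lowest, and the shape differed from that of Retnla, whose lowest phase was day 0 to 3. The value of day 0 to 3 leaned on its 2 joints, since leaving out one or the other gave -1.02 or -0.33. Animal 57 had 6.20.

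Folr2, the folate receptor β of resident macrophages, had a smaller shift. Controls read 7.33, 6.90 and 7.47, and the day 0 to 3 joints 6.62 and 6.42, below all of them. The later joints overlapped the controls, at 6.42 to 7.03 in week 1 to 2, 6.91 to 7.06 in week 3 to 4 and 6.14 to 7.21 in decline. The level on day 0 to 3 was 1.64-fold lower (log2 -0.71, SE 0.28), and the later changes were -0.45, -0.27 and -0.47 (SE 0.25 each). In the order of means each group overlapped its neighbour, from control (7.23 ± 0.30) down to day 0 to 3 (6.52 ± 0.14). The lowest joint of all was decline 10, one of the 2 arrays of narrowest range, and animal 57 had 7.08, within the controls.

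Timd4, the phosphatidylserine receptor, stayed near its control level of 6.59, 6.72 and 6.61. The 11 arthritic joints of the 14 ranged from 6.13 to 7.36, the highest being decline 10 and the lowest animal 60. The changes were -0.14, 0.08, -0.16 and 0.23 in the order of the phases (SE 0.22 to 0.25), and the joints overlapped the controls in each. The value of animal 57 was 7.60, above every one of the 14 arrays.

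Arg1, which splits arginine into ornithine and urea, ran the other way at onset. Controls had 6.01, 6.40 and 6.75, and both day 0 to 3 joints, at 7.07 and 7.26, were above all of them, as was animal 57 at 6.92. In week 1 to 2 the joints had 6.58, 6.90 and 7.22, in week 3 to 4 they had 6.22, 5.82 and 6.95 for animals 29, 54 and 60, and in decline 6.98, 6.11 and 6.67 for animals 10, 15 and 21, all overlapping the controls. The level was 1.72-fold higher on day 0 to 3 (log2 0.78, SE 0.33) and 1.43-fold higher in week 1 to 2 (log2 0.52, SE 0.30). The differences of -0.05 in week 3 to 4 and 0.20 in decline (SE 0.30 each) were smaller than their errors. Within week 3 to 4 the joint with the letter code of the earlier phases, animal 54, had the lowest Arg1 value of the 14 arrays.

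Mrc1, the mannose receptor, had its highest group mean on day 0 to 3 (9.56 ± 0.34), with joints at 9.80 and 9.32. The controls were far apart, at 9.44, 8.10 and 8.35, and every phase overlapped them. Week 1 to 2 held 8.78, 9.57 and 9.38, week 3 to 4 held 8.94, 9.10 and 9.46, and decline held 8.10, 8.93 and 9.39. The changes were 0.93 on day 0 to 3 (SE 0.41), then 0.62, 0.53 and 0.18 (SE 0.37 each). The lowest values were those of control 2 and decline 10, the 2 arrays of narrowest range, and animal 57, narrower still with an SD of 1.08, had 7.39. Without control 2 and decline 10 the changes were 0.66, 0.35, 0.27 and 0.26, and with animal 57 added that of day 0 to 3 was 0.20.

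Chil3, the chitinase-like protein Ym1, had the lowest signals of the 7 and was the 1 member with no group mean of 6 or more (highest mean 5.78). Controls had 5.36, 5.98 and 5.02, and day 0 to 3 had 5.07 and 5.16. The later joints ranged from 4.57 (decline 10) to 6.66 (animal 54), with animal 43 also high at 6.50, and each phase overlapped the controls. The changes were -0.34, 0.32, 0.32 and -0.10 with errors of 0.43 to 0.48. The 2 changes above 0 rested on a single joint each, since without animal 43 the first was -0.04 and without animal 54 the second was -0.12. Chil4, its close neighbour on chromosome 3, is so similar that probes may read both, and no change in Chil4 passed the test (log2 -0.69 on day 0 to 3, adjusted p = 0.11, limma). Its signal was lower still, with a control mean of 3.78, so that little can be read from this.

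**Figure D2:**
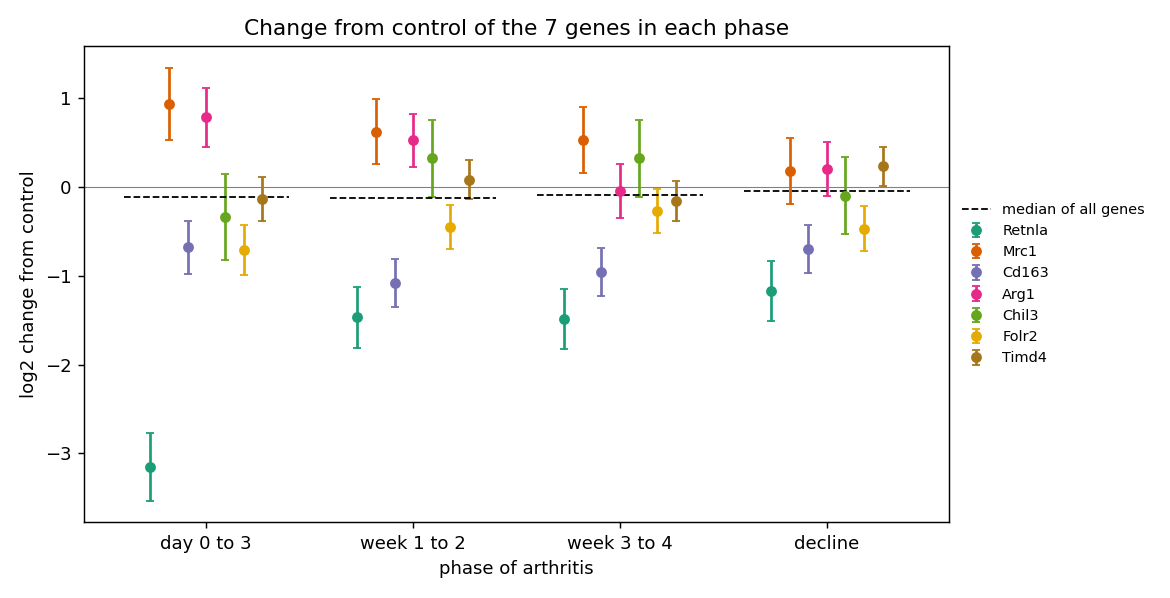
Log2 change from control (axis in log2 units) of the 7 genes in the 4 phases, with bars of 1 standard error from the limma fit of 5 group means, a line at 0 and a dashed line at the median of all genes. Retnla reaches -3.15 on day 0 to 3 and stays below -1 in each later phase, while the other genes lie between -1.08 and 0.93.

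Counted together, the 7 genes had no common direction. On day 0 to 3, 3 of them (Retnla, Cd163 and Folr2) had every joint below every control, as had 27.8% of all genes, and 1 (Arg1) had every joint above, as had 18.4%. In each of the next 2 phases Retnla and Cd163 were below (2 of 7 each, against 23.3% and 15.4% of all genes) and none was above (13.6% and 10.5%). In decline Retnla alone was below (1 of 7, against 6.2%), a place it lost when arrays were centred on their medians, and none was above (3.8%). The members' median change was -0.34, 0.08, -0.16 and -0.10 over the phases, beside -0.12, -0.13, -0.09 and -0.05 for all genes. As the genes were selected on these contrasts, nothing is read from the shares.

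Between pairs of the genes, the correlation of log2 levels over the 14 arrays ran from -0.57 to 0.61, and 8 of 21 pairs lay above 0. The highest was Retnla with Folr2 (0.61), followed by Cd163 with Folr2 (0.50). Mrc1 with Timd4 (-0.57), Arg1 with Chil3 (-0.53), Arg1 with Folr2 (-0.52) and Retnla with Mrc1 (-0.51) ran opposite. These coefficients describe 14 arrays that share groups and signal range.

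The genes also differed in how they followed the range of the array. For Mrc1 the correlation of its level with the SD over genes of the array was 0.89 (Spearman 0.84, n = 14), and 0.74 without control 2 and decline 10. For Timd4 it was -0.59, for Retnla -0.45, for Cd163 -0.31, for Chil3 0.22, for Arg1 0.20 and for Folr2 0.05. Without those 2 arrays it was -0.60 for Folr2, -0.55 for Retnla, 0.41 for Arg1, -0.40 for Timd4, -0.29 for Cd163 and 0.26 for Chil3, so that the low value of Folr2 rested on them. Over all genes the median was -0.29, and 8.51% of genes had 0.80 or more. The part of signal range in the members' values was not tested.

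**Figure D3:**
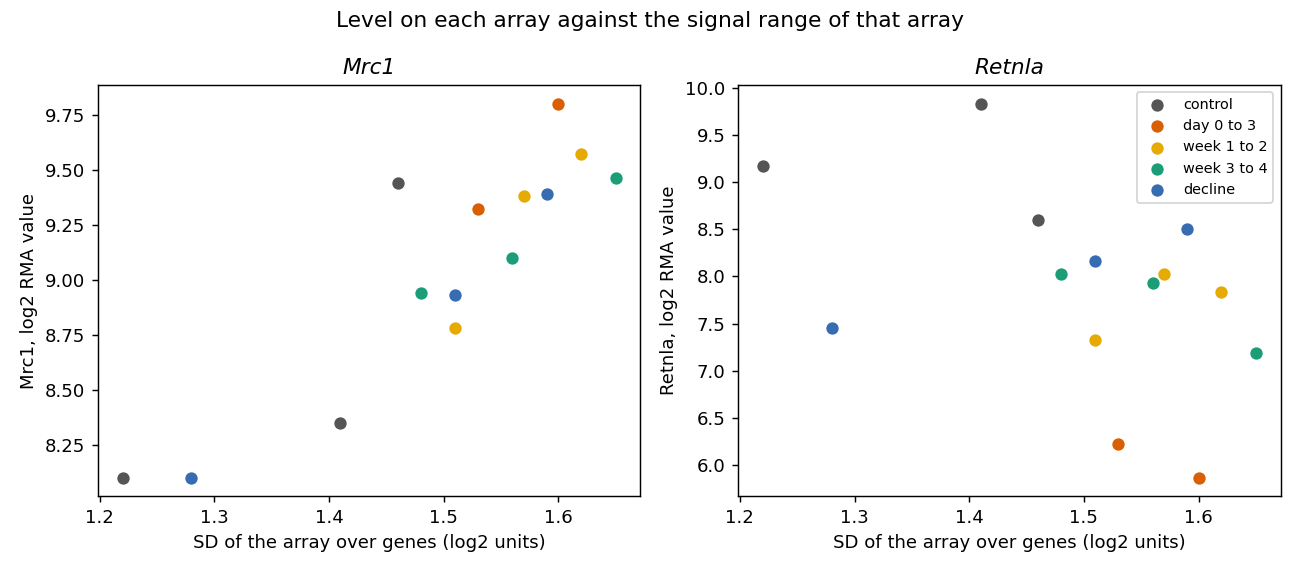
Log2 level of Mrc1 (left) and Retnla (right) on the vertical axis against the SD over genes of each of the 14 arrays (horizontal axis, log2 units), with 1 point per array coloured by group. Mrc1 is low on the narrow arrays control 2 and decline 10 (8.10 on both) and higher on the wide ones, and Retnla, with r = -0.45, is lowest on the 2 arrays of day 0 to 3.

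Genes whose level ran most like each member, among 13584 genes with a group mean of 6 or more, were found by Pearson's r over the 14 arrays. Retnla was nearest to Vldlr, the VLDL receptor (r = 0.93), Txlnb (0.93) and Mybpc2, a myosin-binding protein of fast muscle (0.92), and r stayed at 0.83 to 0.88 without the 2 farthest arrays. Cd163 was nearest to Abcc1 (0.83), Tacc2 (0.82) and Nudt14 (0.81), and Folr2 to Dlat, a subunit of pyruvate dehydrogenase (0.91), Smyd2 (0.89) and Ecpas (0.88). Mrc1 was nearest to Huwe1, Magt1 and Ppp4r1 (0.96 each), and Arg1 to Ndufs5 (0.86), Hcar2 (0.84) and Vkorc1l1 (0.81). The nearest genes of Chil3 (Ap3m2 0.78, Ska2 0.77, Abhd17b 0.76) and Timd4 (Olfr401 0.92, Ccdc153 0.89, Cit 0.87) dropped to between 0.43 and 0.70 without the 2 farthest arrays. No member was among the 3 nearest genes listed, as members were left out of that search.

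General macrophage markers rose while Retnla, Cd163 and Folr2 were lower. Of 13 such genes, 9 rose on day 0 to 3 and none fell (limma, adjusted p under 0.05, reached by 4.46% of all genes upwards and 3.36% downwards), and 5 rose in week 1 to 2 (5.41% and 4.64%). None passed in week 3 to 4 (0.958% and 0.592%) or in decline (0% and 0%, with 2400 genes at an unadjusted p under 0.05). Msr1, a scavenger receptor, rose 7.31-fold on day 0 to 3 (adjusted p = 0.002) and Tyrobp, a signalling adaptor of myeloid receptors, 3.94-fold (adjusted p = 0.013). The mean of the 13 genes lay at 7.35 to 7.99 in the controls and, over the successive phases, at 8.94 to 9.16, 8.31 to 8.88, 8.06 to 8.67 and 7.55 to 8.37. On the excluded array of animal 57 it was 6.91, below the controls and the other joints of day 0 to 3.

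Set against that mean on the same array, the log2 level of Retnla differed from the controls by -4.51, -2.43, -2.17 and -1.49, that of Cd163 by -2.04, -2.04, -1.64 and -1.02, and that of Folr2 by -2.07, -1.41, -0.95 and -0.79. As the macrophage mean itself was higher in the phases, the median of all genes on this scale was -1.48, -1.09, -0.78 and -0.38. All joints were below all controls for 93%, 76.9%, 51.5% and 5.93% of all genes in the successive phases, so that the place of a member below the controls says little here. The changes of Mrc1 (-0.43 to -0.14) and Arg1 (-0.74 to -0.12) were below 0 in every phase on this scale, and their joints overlapped the controls. Both genes lay above the median of all genes in each phase, Arg1 narrowly in week 3 to 4 (-0.74 against -0.78). Those of Timd4 and Chil3 on day 0 to 3 were -1.50 and -1.70, close to the median of all genes.

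Markers of muscle and fat moved in the direction of Retnla. Of 10 skeletal muscle markers, 9, 2, 1 and 0 fell in the successive phases, and their mean was 11.15 to 11.85 in the controls, 8.88 to 9.03 on day 0 to 3 and 10.20 to 11.42 in the later joints. Of 9 adipocyte markers, 5 fell on day 0 to 3 and 4 in week 1 to 2, Adipoq (adiponectin) by 2.31-fold and 2.26-fold (adjusted p = 0.0054 and 0.0036), and their mean was 7.95 to 8.02 in the controls and 7.20 to 7.75 in all 11 arthritic joints. The group means of both lists were therefore highest in the controls and lowest on day 0 to 3, as that of Retnla was. Their part in the Retnla values was not tested.

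Among the other lists, 4 of 8 osteoclast genes rose in each of the first 3 phases, and 4, 6 and 1 of 10 synovial fibroblast genes did so. Of 13 neutrophil genes 2 rose on day 0 to 3, Csf3r and Mmp9, while 7 of the 13 changes were below 0. The 1 that rose in week 1 to 2 and in week 3 to 4 was Mmp9, which is also on the osteoclast list. The neutrophil list means were 8.02 to 9.06 in controls and 8.10 to 9.71 in the arthritic joints. Of 7 endothelial and lymphatic genes 3 rose on day 0 to 3. Of 9 lymphocyte genes Cd3g rose on day 0 to 3, and Vpreb1, of B cell precursors, fell on day 0 to 3 and in week 1 to 2. No gene of the eosinophil and mast cell, epidermis or erythroid lists passed in any phase, and no gene of any of the 11 marker lists passed in decline. The epidermis mean ranged from 5.94 on day 0 to 3 to 11.70 in decline. In controls 1, 2 and 3 it was 6.75, 6.56 and 10.78, beside Retnla levels of 8.60, 9.17 and 9.83. The part of epidermis in the Retnla values was not tested.

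**Figure D4:**
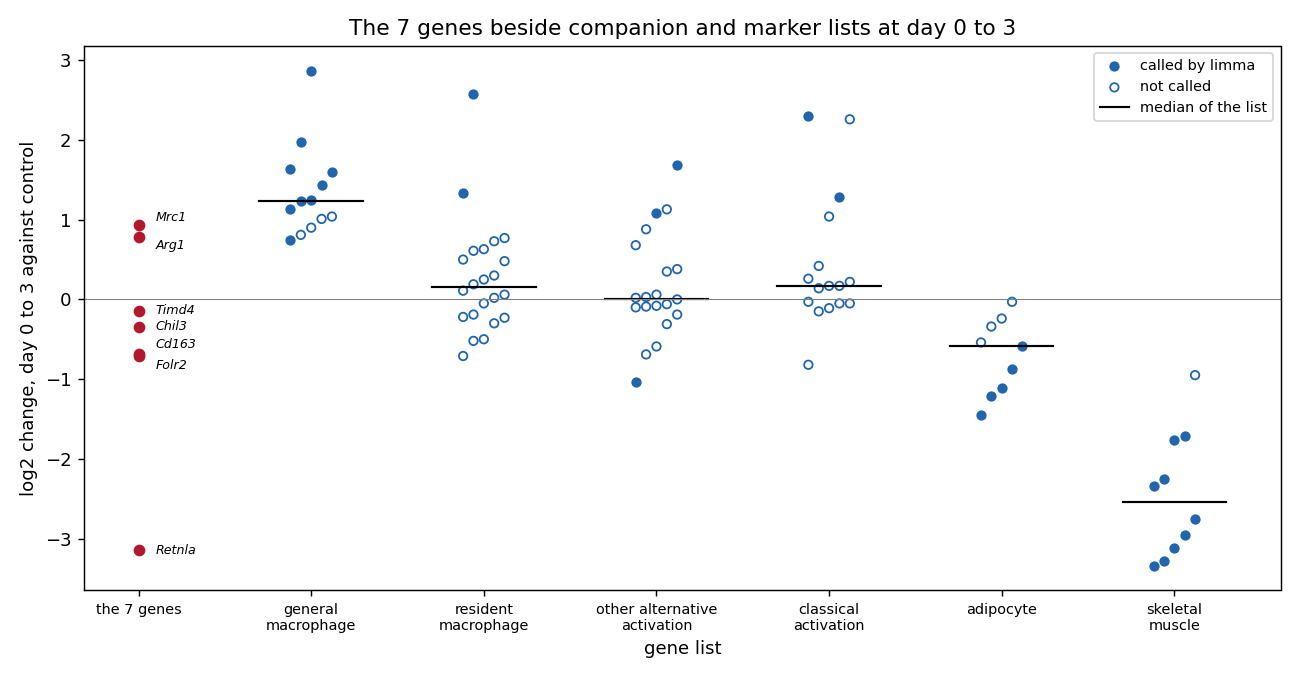
Log2 change from control on day 0 to 3 (2 joints against 3) of the 7 members (red) and of the genes of 6 lists (blue, filled where the limma test was passed), 1 point per gene, with a bar at each list's median. The 13 general macrophage genes have a median of 1.23, the 10 muscle genes -2.55 and the 9 adipocyte genes -0.58, and the 7 members spread from -3.15 to 0.93.

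Related genes were followed in 8 lists, 3 of them upstream of the members (ligands, receptors and transducers) and the others of targets, resident macrophages, classical activation, arginine metabolism and relatives. Of the 29 upstream genes measured, 6 rose on day 0 to 3 and 2 in week 1 to 2, none rose later and none fell in any phase (6 and 1 at an unadjusted p under 0.05 in the last 2 phases). Of the 126 genes of all 8 lists 112 were measured. On day 0 to 3, 14 of these rose and 2 fell (limma, reached by 4.46% of all genes upwards and 3.36% downwards). In week 1 to 2, 4 rose and 3 fell (5.41% and 4.64% of all genes), no larger a share than over all genes. In the last 2 phases none passed, where 23 and 10 had an unadjusted p under 0.05. The counts of single lists below stand beside the same shares, and small counts are not read as results about a list. A test of each phase and the controls by themselves, with no spread shared between genes, called none of the 112 in any phase (24, 16, 8 and 5 at an unadjusted p under 0.05). The calls of day 0 to 3 also need both of its joints, with 1 left without animal 16 and 3 without animal 18.

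The ligands Il4 and Il13 did not pass the test. Il4 had a change of -0.21 on day 0 to 3 (adjusted p = 0.52, limma) and Il13 one of -0.14 (adjusted p = 0.69). The control mean of Il4 was 5.42, under the limit of 6, and that of Il13 was 6.67, so that a change in Il4 could be missed. Of 8 ligands and inducers Il33, an alarmin that induces type 2 cytokines, rose 2.19-fold on day 0 to 3 (adjusted p = 0.035) and none passed later. Of 7 receptor genes, 3 rose on day 0 to 3. The changes of 2 others were below 0, Crlf2 (-0.14) and Il17rb (-0.54), the latter with every joint below every control. Il4ra, the chain shared by both ligands, rose 6.30-fold on day 0 to 3 (log2 2.66, SE 0.40, adjusted p = 0.0025) and 2.74-fold in week 1 to 2 (adjusted p = 0.025). Il13ra1, its signalling partner, rose 2.52-fold (adjusted p = 0.031) and Il13ra2, known as a decoy receptor, 2.97-fold on day 0 to 3 (adjusted p = 0.0018). The control mean of Il13ra2 was 4.66, also under the limit of 6. Il4ra was thus highest in the phase in which Retnla was lowest.

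Stat6, which carries the signal to the nucleus, had a log2 change of 0.03 on day 0 to 3 (adjusted p = 0.93). Of 14 transducers and transcription factors, Nfil3 rose 5.33-fold on day 0 to 3 (adjusted p = 0.026) and 4.93-fold in week 1 to 2 (adjusted p = 0.018), and Stat3, the transducer of interleukin-6 and interleukin-10, rose 1.67-fold on day 0 to 3 (adjusted p = 0.048). The array reads transcript and not phosphorylated protein.

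Other targets of alternative activation were mixed, as the members were. Of 20, Ch25h, a cholesterol hydroxylase, rose 3.22-fold (adjusted p = 0.039) and Clec7a, which codes for dectin-1, 2.11-fold (adjusted p = 0.026) on day 0 to 3. The eosinophil chemokine Ccl24 fell 2.06-fold on day 0 to 3 (log2 -1.04, adjusted p = 0.0054) and 2.24-fold in week 1 to 2 (log2 -1.17, adjusted p = 0.0023), beside the lower Retnla and Cd163. Of 22 resident macrophage genes 2 rose on day 0 to 3, the chemokine Ccl8 5.99-fold (adjusted p = 0.032) and Gas6, a ligand of receptors for dying cells, 2.53-fold (adjusted p = 0.029). None passed the test downwards in any phase, but the list ran both ways. On day 0 to 3, 5 of the 22 had every joint above every control (18.4% of all genes) and 4 every joint below (27.8%). The 4 were Lyve1, Cd209d, Cd209g and Marco. Over the 4 phases, 8, 14, 9 and 12 of the 22 changes were below 0. The list's median change was 0.15, -0.11, 0.03 and -0.06, beside -0.12, -0.13, -0.09 and -0.05 for all genes.

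On the classical side, 2 of 16 genes rose on day 0 to 3 and 2 in week 1 to 2. Il1b, the inflammatory cytokine, rose 4.91-fold and 3.84-fold (adjusted p = 0.012 and 0.014), Ptgs2, an inducible cyclooxygenase, 2.45-fold on day 0 to 3 (adjusted p = 0.028) and Il6 5.76-fold in week 1 to 2 (adjusted p = 0.034). The Il6 joints of week 1 to 2 overlapped the controls (SE 0.68), whose mean of 5.05 was under the limit of 6. Nos2, the inducible synthase that uses the same substrate as Arg1, had a change of 0.26 on day 0 to 3 (adjusted p = 0.34). In arginine metabolism, 1 of 11 genes passed, Nos1, the neuronal synthase, which fell 1.83-fold in week 1 to 2 (adjusted p = 0.019). Arg2, the mitochondrial arginase, had a change of 0.74 on day 0 to 3 (adjusted p = 0.12), close to the 0.78 of Arg1.

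Relatives of the members were examined as a further 14 genes. Retn, the resistin gene that adipocytes make in mice, fell 2.48-fold on day 0 to 3 (log2 -1.31, adjusted p = 0.0045) and 1.94-fold in week 1 to 2 (adjusted p = 0.012). Retnlb and Retnlg lie beside Retnla on chromosome 16, and neither passed in any phase. Their changes on day 0 to 3 were -0.16 and 0.20, against the -3.15 of Retnla. The control mean of Retnlb was only 4.1, so that a fall in Retnlb could be missed. That of Retnlg was 9.79, and its change on day 0 to 3 had an SE of 0.68. Chil1, a chitinase-like relative of Chil3, rose 2.77-fold (adjusted p = 0.039) and Havcr2, which codes for TIM-3 and lies on chromosome 11 as Timd4 does, 1.80-fold (adjusted p = 0.022) on day 0 to 3. Folr1, the neighbour of Folr2 on chromosome 7, had a change of -0.61 (adjusted p = 0.13), close to the -0.71 of Folr2, and Mrc2 one of 0.36 (adjusted p = 0.27).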

How the data were processed

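RNA of 15 tarsal joints, 1 per mouse, was hybridised to Affymetrix Mouse Gene 1.0 ST arrays of 1 colour. Background correction, quantile normalisation and probe summary by RMA (R 2.15) had been done by the authors, whose deposited log2 values ran from 1.56 to 14.26. Of 35556 probe sets, 21789 named 1 gene (21698 matched to an identifier), 1621 named several and 12146 had none listed, and only the first kind was used. Where a gene had several probe sets (999 genes), the brightest on average was kept, giving 19938 genes.

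Groups were fitted in limma 3.58.1 under R 4.3.3 (lmFit and eBayes, 5 group means, no covariate) over 14 arrays, without animal 57. P-values were adjusted over all genes by Benjamini-Hochberg and calls made under 0.05. The calculation was tested on simulated data. Arrays have no read depth, and 2 or 3 arrays per group limit the precision.

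The members, the gene lists and the rule for naming genes were chosen with earlier results of these data known. Named are all 7 members, up to 4 called genes of a list with the largest change, genes whose role the text needs, and the 3 genes most like each member. Alternatives were all 15 arrays, each array left out, the 2 groups compared alone (by ANOVA, which the methods name, or by limma), array weights, trend with robust moderation, median centring, a second quantile normalisation, a minimum group mean of 6 and the mean of probe sets. Leaving out control 2 and decline 10 together was added after seeing the data.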

Additional observations from a re-analysis of the deposited data

Results flagged for a closer look

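The excluded array of animal 57, of day 0 to 3, takes no part in the comparisons, and 2 of the 7 genes read above every control on it. Arg1 was 6.92 on that array and Timd4 7.60, against control maxima of 6.75 and 6.72. The array had the narrowest range of the 15, with an SD over genes of 1.08. No explanation of the 2 values was tested.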

How the results depend on the processing

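Of 28 member changes (7 genes, 4 phases), 20 kept their sign under all 19 alternatives, Retnla, Cd163 and Folr2 in every phase among them. The other 8 took either sign: Arg1 in week 3 to 4, Chil3 in the last 3 phases, Mrc1 in decline, and Timd4 in all but week 1 to 2. Of the 532 values, 528 moved by less than the spread between replicates. The other 4 were, with all 15 arrays on day 0 to 3, Retnla -2.19, Mrc1 0.20 and Timd4 0.22, and Chil3 0.55 in decline without control 2 and decline 10. Many of the 528 could not move. A change does not depend on arrays of another phase, and averaging probe sets leaves genes of 1 probe set as they were. Animal 57 enters day 0 to 3 only. The kept signs and small moves therefore include settings that could not alter them.

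Members above every control numbered 1 in week 1 to 2 after centring or a second quantile normalisation, and 1 in week 1 to 2 and in decline without the narrow arrays. Members below numbered 1 on day 0 to 3 with 15 arrays, and in decline 0 after centring (Retnla then overlapped) and 2 after quantile normalisation or without the narrow arrays. Leaving out 1 array gave 1 to 2, 0 to 1, 0 to 1 and 0 to 1 members above over the 4 phases, and 3 to 4, 2 to 3, 2 to 3 and 1 to 2 below.

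Calls over all genes were 1559, 2005, 309 and 0. On day 0 to 3 the ANOVA gave 0, 15 arrays 163, a fit of the 2 groups 454 and array weights 2935; in week 1 to 2, 10, 106, 1164 and 3014. In week 3 to 4 the ANOVA and 15 arrays gave 0, the 2 groups 2, centring 51 and leaving out the narrow arrays 688; in decline quantile normalisation gave 9 and leaving out the narrow arrays 109. Calls in the 8 lists (16, 7, 0 and 0 of 112 genes) were, on day 0 to 3, 0 by ANOVA, 1 with 15 arrays, 10 centred, 6 from the 2 groups and 25 with weights; in week 1 to 2, 0 by ANOVA, 1 with 15 arrays and 4 from the 2 groups; in week 3 to 4, 1 with the minimum mean of 6, and 2 after quantile normalisation or without the narrow arrays.

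Leaving out 1 array gave 139 to 2613, 417 to 3389, 0 to 1427 and 0 to 191 calls over all genes, and 1 to 24, 2 to 15 and 0 to 5 calls in the 8 lists in the first 3 phases. On day 0 to 3 all genes gave 139 without animal 16, 209 without animal 18, 972 without control 2, 2557 without control 1 and 2613 without decline 10. List calls in week 1 to 2 were 2 without animal 43 or 52, 4 without control 3, 15 without control 1 and 13 without decline 10. The cause was not tested. No paired analysis was possible because the groups share no replicate numbers: each number names an animal.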
